A study of Mus musculus with 6 samples.

Results

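The genes described here are 10 members of the BCL2 family, the proteins that decide whether the outer mitochondrial membrane is opened during apoptosis, measured in primary mouse keratinocytes with and without iASPP. They were taken by gene name from the table of read counts, 10 of its 55367 gene names: *Bcl2*, *Bcl2l1* and *Mcl1*, which protect the cell, the pore-forming effectors *Bax* and *Bak1*, and the BH3-only genes *Bbc3*, *Pmaip1*, *Bid*, *Bcl2l11* and *Bmf*. All 10 had enough reads to be tested. The keratinocytes were isolated from the skin of newborn pups with the genotype Ppp1r13lflox/flox;Cre+ERT on a mixed background (C57BL/6 and 129/Sv). In these mice a tamoxifen-activated Cre recombinase, expressed from the Rosa26 locus and therefore not limited to keratinocytes, removes exon 8 of *Ppp1r13l*, the iASPP gene. After 24 h in low-calcium culture the cells received fresh medium with tamoxifen (iASPP KO) or without it (iASPP WT), and the labels give 3 batches with 1 culture of each condition, 6 RNA libraries in 3 pairs. Every culture of both conditions carried the floxed alleles and the Cre, and the iASPP-WT cultures received no tamoxifen, so the drug and the deletion cannot be told apart. The labels give the tamoxifen concentration as millimolar and the methods as micromolar.

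BCL2 proteins work by binding one another. BCL2, BCL-XL (encoded by *Bcl2l1*) and MCL1 hold BAX and BAK in check, the BH3-only proteins engage the protective members or activate the effectors directly, and once BAX or BAK forms pores, cytochrome c leaves the mitochondria and caspases are activated. *Bax*, *Bbc3* (PUMA) and *Pmaip1* (NOXA) are classical transcriptional targets of p53, and iASPP is known as an inhibitor of p53-induced apoptosis, which is why their levels in iASPP-KO cells are of interest. Much of the activity of these proteins is set after transcription, by cleavage, phosphorylation and turnover, none of which read counts can show.

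The 6 libraries held 20202517 to 25157117 counts, and a gene's level is given below as CPM, its counts after scaling to 1000000 with edgeR's TMM factors (0.916 to 1.11). At this depth 3 counts are 0.119 to 0.148 CPM before that scaling. *Ppp1r13l* itself was at 14.3, 17.7 and 5.91 CPM in iASPP KO for batches 1, 2 and 3. The untreated partners were at 32.7, 45.1 and 21.0 CPM (log2 fold change −1.45, SE 0.18, edgeR adjusted p = 0.00296), lower with tamoxifen in every pair. This is a count over the whole gene, which includes the exons that Cre leaves in place. The 9 keratinocyte markers, with *Krt14* and *Krt5* among them, summed to 27339 to 33199 CPM and none of them passed the threshold. Markers of other cells were present too: 5 melanocyte markers summed to 394 to 1033 CPM with tamoxifen and 340 to 1082 without it, and 7 leukocyte markers to 66.8 to 82.1 and 45.2 to 67.2 CPM, with *Cd3e* at 0 in all libraries. The 3 endothelial markers summed to 2.16 to 11.99 CPM. The 6 fibroblast markers set batch 3 apart, with 454 CPM in its iASPP-KO culture, 669 in its partner, against 33.7 to 51.5 CPM in the other 4 libraries. Among these lists *Csf1r* passed as higher in iASPP KO (log2 fold change 1.11, edgeR adjusted p = 0.0206) and *Col1a2* and *Col3a1* as lower (−0.55 and −0.87, edgeR adjusted p = 0.0428 and 0.0269). The fibroblast markers did not all go that way. Of the 6, 1 had a log2 fold change above 0, *Pdgfra* (0.81, SE 0.34, edgeR adjusted p = 0.258), and *Dcn* had −0.02 (SE 0.21). Because the RNA is from bulk cultures, more RNA per cell and more cells of a kind cannot be told apart, and the part of these other cells in the values below was not tested.

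None of the 10 genes differed significantly between iASPP KO and iASPP WT at an adjusted p of 0.05, in either direction, in an edgeR quasi-likelihood fit with batch and condition over 14916 genes. Over all tested genes, 2.17% were called higher in iASPP KO and 1.95% lower. *Bcl2*, *Bcl2l1*, *Bax*, *Bid* and *Bmf* had an unadjusted p under 0.05, all 5 on the side of higher expression in iASPP KO, against 8.66% of all tested genes on that side. The same 5 genes were higher with tamoxifen in all 3 batches (19.5% of all tested genes were), and in each of them the lowest iASPP-KO culture lay above the highest iASPP-WT culture (5.26% of all tested genes). In the other direction, 0 of the 10 genes were lower in all 3 batches (19.7% of all tested genes) and 0 lay wholly below iASPP WT (5.46%). DESeq2 called 2 of the genes higher, *Bcl2l1* and *Bid*, where it called 3.69% of the genes it gave an adjusted p. Without batch 3, edgeR called only *Bcl2*, against 5.20% of the genes tested. Without the filter on low counts it called *Bcl2*, *Bcl2l1*, *Bax* and *Bid*, against 1.95% of 31932 genes. A fit without the batch term called 0 genes of all those tested, with 4 of the 10 genes and 360 of all genes at an unadjusted p under 0.05 on the higher side. The median log2 fold change of the 10 genes was 0.43, and that of all tested genes was 0.01. The plot of levels by culture shows the 10 genes side by side.

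**Figure D1:**
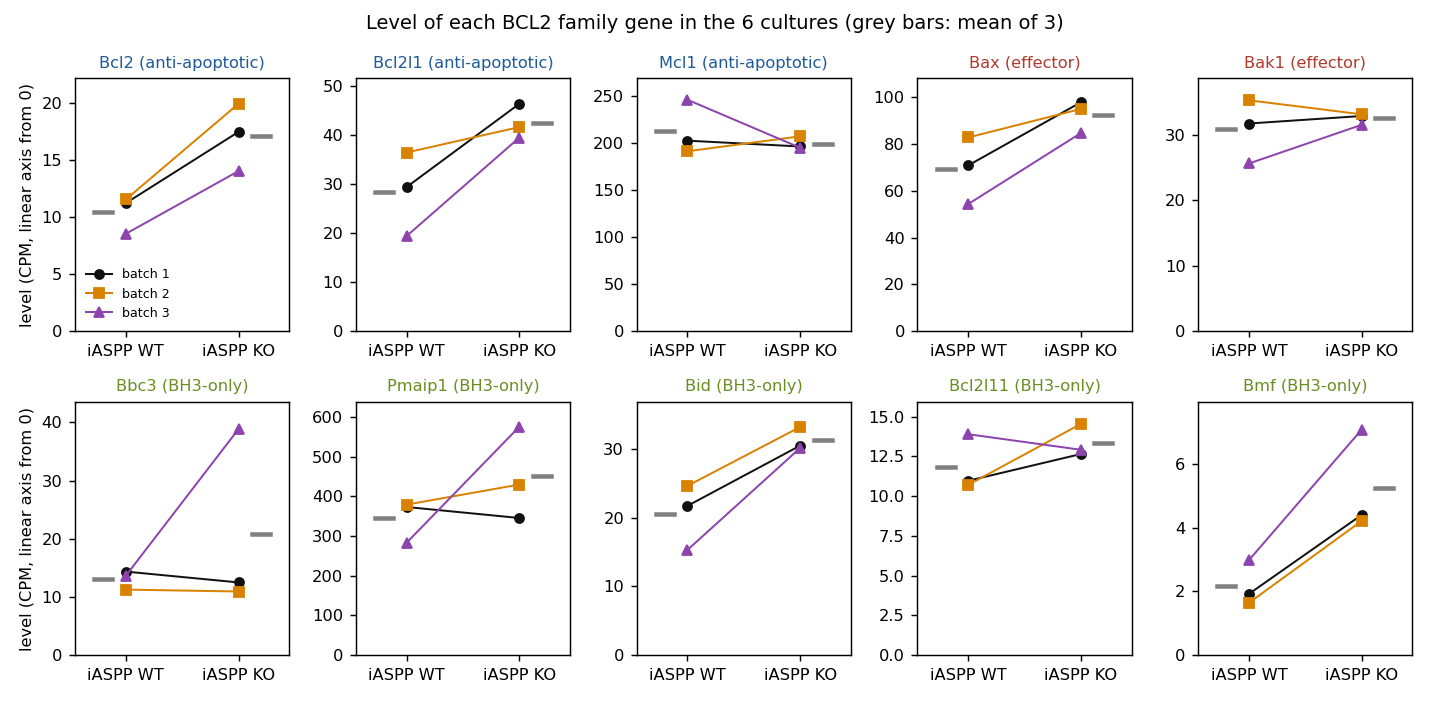
Level in CPM (linear axis from 0) of the 10 BCL2 family genes in iASPP WT and iASPP KO, with 1 line per batch joining its 2 cultures and grey bars at the mean of 3 cultures. All 3 lines climb for Bcl2, Bcl2l1, Bax, Bid and Bmf, while for Bbc3 the iASPP-KO culture of batch 3 stands alone at 38.9 CPM.

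Promoters were read because p53 and the AP1 factors studied alongside iASPP act on DNA. RefSeq windows of 300 bases, from 250 before to 50 after an annotated start (GRCm38.p6), were on hand for 9 of the 10 genes, 16 windows in all, with none for *Pmaip1*. They were searched for the p53 half-site, a 10-base consensus that reads the same on both strands, and for the AP1 heptamer TGANTCA, which does too. The half-site occurred in 2 of the 16 windows, in that of *Bax* and in 1 of the 3 of *Bmf*, and in 8.36% of all 32851 windows. The AP1 heptamer occurred in none of the 16 and in 7.81% of all windows. No window of *Bbc3* held either. The 250 bases before the start are shown for the windows with a half-site, which is in capitals and begins 201 bases before the start of *Bax* (chr7:45466899-45467148, minus strand) and 213 before that of *Bmf* (chr2:118544588-118544837, minus strand). A match of letters is not a binding site, and these windows leave out introns and distant elements.
Bax: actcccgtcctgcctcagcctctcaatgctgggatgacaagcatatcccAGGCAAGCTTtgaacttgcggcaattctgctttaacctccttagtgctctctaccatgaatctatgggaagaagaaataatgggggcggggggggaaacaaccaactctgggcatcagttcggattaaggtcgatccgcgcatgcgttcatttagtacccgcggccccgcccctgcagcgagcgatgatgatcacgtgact
Bmf: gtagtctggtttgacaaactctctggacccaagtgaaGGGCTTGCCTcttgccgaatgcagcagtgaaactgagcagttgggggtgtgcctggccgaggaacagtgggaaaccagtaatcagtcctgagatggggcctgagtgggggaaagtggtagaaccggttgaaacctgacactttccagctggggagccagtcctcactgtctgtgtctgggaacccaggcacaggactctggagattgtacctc

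Of the protective genes, *Bcl2* (chromosome 1, 106538178 to 106714274, GRCm38, minus strand) had 393, 445 and 331 reads in iASPP KO for batches 1, 2 and 3, the order used for all values here, which is 17.5, 20.0 and 14.1 CPM. Their iASPP-WT partners had 240, 282 and 192 reads, or 11.2, 11.6 and 8.55 CPM. Every iASPP-KO culture was above every iASPP-WT culture. The level was 17.2 ± 2.97 CPM against 10.5 ± 1.66 (SD, n = 3 in each condition), a fold change of 1.64 (log2 0.71, SE 0.19, edgeR adjusted p = 0.0749). The single batches lay close together, at log2 differences of 0.63, 0.78 and 0.71. Each was larger than counting error alone allows, since the 95% exact binomial intervals of the read ratio ran from 0.40 to 0.88, from 0.57 to 1.01 and from 0.46 to 0.98 on the log2 scale.

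*Bcl2l1* (chromosome 2, 152780668 to 152831728, minus strand) encodes BCL-XL, a protective protein of the mitochondrial membrane. It was at 46.4, 41.7 and 39.5 CPM under iASPP KO, while iASPP WT had 29.4, 36.5 and 19.4 CPM. The conditions did not overlap, and the iASPP-WT cultures were the more scattered, with an SD of 8.56 against 3.53 CPM (n = 3 in each condition). The fold change was 1.54 (log2 0.62, SE 0.18, edgeR adjusted p = 0.0846), made up of 0.66 in batch 1, 0.19 in batch 2 and 1.02 in batch 3. *Mcl1*, which encodes a short-lived protective protein (chromosome 3, plus strand, from 95658788), went no one way. It was at 196, 207 and 195 CPM under iASPP KO, and iASPP WT had 203, 191 and 246 CPM (log2 fold change −0.09, SE 0.12, edgeR adjusted p = 0.795), lower with tamoxifen in batches 1 and 3 and higher in batch 2.

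Of the effectors, *Bax* (chromosome 7, minus strand, from 45461697) had 97.8, 94.9 and 84.6 CPM under iASPP KO, and its iASPP-WT partners had 70.8, 82.7 and 54.3 CPM. The conditions did not overlap, though the iASPP-KO culture of batch 3 and the iASPP-WT culture of batch 2 lay close together. The means were 92.4 ± 6.91 and 69.3 ± 14.3 CPM (SD, n = 3), a fold change of 1.35 (log2 0.43, SE 0.13, edgeR adjusted p = 0.0970), with 0.47, 0.20 and 0.64 in the single batches. A gene model on the same strand, *Gm45808*, shares 12.2% of the exon bases of *Bax*, and a read lying in both is by default assigned to neither, so the level of *Bax* is a lower limit in every library alike. *Bak1* (chromosome 17, minus strand, from 27019810), the effector that resides on mitochondria, had 32.9, 33.2 and 31.6 CPM under iASPP KO, and iASPP WT had 31.8, 35.3 and 25.7 CPM. These values overlapped, and the log2 fold change was 0.09 (SE 0.15, edgeR adjusted p = 0.842).

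Among the BH3-only genes, *Bbc3* (chromosome 7, 16308393 to 16318205, plus strand) had 280, 243 and 915 reads under iASPP KO, and its iASPP-WT partners had 306, 274 and 306. In CPM this is 12.5, 10.9 and 38.9 against 14.3, 11.2 and 13.6. A single culture, iASPP KO of batch 3, was high, and the other 5 lay between 10.9 and 14.3 CPM. In that batch the ratio was 2.85, with a 95% exact binomial interval for counting error of 1.32 to 1.70 on the log2 scale, whereas the intervals of batches 1 and 2 (−0.44 to 0.04 and −0.30 to 0.21) both included 0. The fit over all batches gave a log2 fold change of 0.43 (SE 0.31, edgeR adjusted p = 0.571), and −0.12 without batch 3 (edgeR adjusted p = 0.890).

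*Pmaip1* (chromosome 18, 66458533 to 66465565, plus strand), whose product NOXA binds mainly MCL1, was the most abundant of the 10 genes. It had 346, 430 and 576 CPM under iASPP KO, and iASPP WT had 373, 379 and 283 CPM. The conditions overlapped, and batch 3 again held the largest difference, at a ratio of 2.03, with its iASPP-KO culture the highest and its iASPP-WT culture the lowest of the 6. The log2 fold change was 0.36 (SE 0.19, edgeR adjusted p = 0.372) over all batches and 0.03 without batch 3 (edgeR adjusted p = 0.944). The summed fibroblast markers of batch 3 were lower in iASPP KO than in iASPP WT (454 and 669 CPM), and their part in the *Bbc3* and *Pmaip1* values was not tested.

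*Bid* (chromosome 6, minus strand, from 120891930), whose protein is cut by caspase-8 and so joins death receptors to mitochondria, was at 30.5, 33.2 and 30.1 CPM under iASPP KO, while iASPP WT had 21.7, 24.6 and 15.3 CPM. All iASPP-KO cultures were above all iASPP-WT cultures. The fold change was 1.55 (log2 0.63, SE 0.17, edgeR adjusted p = 0.0747), the lowest adjusted p of the 10 genes, with 0.49, 0.43 and 0.98 in the single batches. *Bcl2l11* (chromosome 2, plus strand, from 128126038), which encodes BIM, had 12.7, 14.5 and 12.9 CPM under iASPP KO, and iASPP WT had 11.0, 10.7 and 13.9 CPM. Its values overlapped (log2 fold change 0.18, SE 0.21, edgeR adjusted p = 0.752), and in batch 3 it was lower with tamoxifen.

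*Bmf* (chromosome 2, minus strand, from 118528757), a BH3-only gene tied to detachment of cells from their matrix, had the fewest reads and the largest fold change. It had 99, 94 and 167 reads in iASPP KO and 41, 40 and 67 in iASPP WT, or 4.41, 4.22 and 7.10 against 1.92, 1.64 and 2.98 CPM. The conditions did not overlap, and within each batch the iASPP-KO culture had 2.30, 2.57 and 2.38 times the level of its partner. The fold change in the fit was 2.41 (log2 1.27, SE 0.38, edgeR adjusted p = 0.106). The ratio of each batch lay inside the counting intervals of the other batches, the 95% exact binomial limits running from 0.66 to 1.76, 0.81 to 1.93 and 0.83 to 1.68 on the log2 scale.

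**Figure D2:**
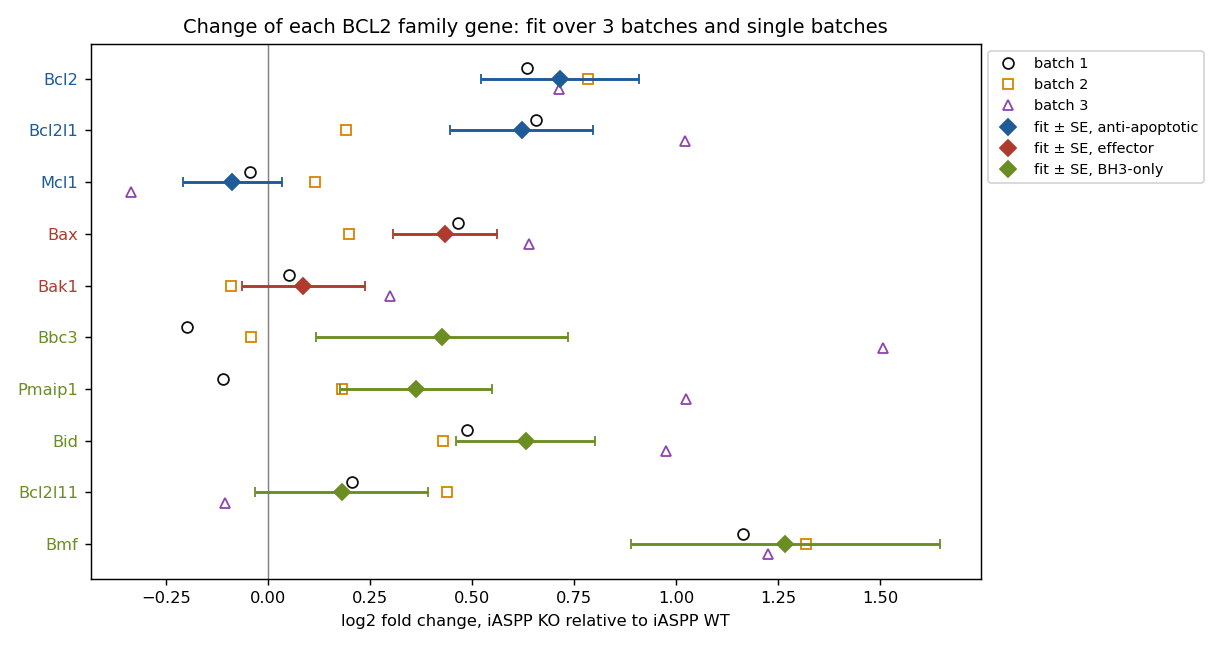
Log2 fold change with tamoxifen (iASPP KO over iASPP WT) for the 10 genes. Diamonds with bars are the edgeR estimate ± SE over the 3 batches, and open symbols are the log2 CPM differences of single batches. Bcl2 and Bmf have their 3 batches close together, while for Bbc3 and Pmaip1 batch 3 lies far to the right of the other batches.

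The iASPP-WT culture of batch 3 was the lowest of the 6 cultures for 6 of the 10 genes (*Bcl2*, *Bcl2l1*, *Bax*, *Bak1*, *Pmaip1* and *Bid*), against 24.0% of all tested genes, and the highest for *Mcl1* alone, against 24.9%. The iASPP-KO cultures were spread less than the iASPP-WT cultures for 6 of the 10 genes, among them *Bcl2l1*, *Bax* and *Bid*, against 53.6% of all tested genes. For *Bcl2l1*, *Bax* and *Bid*, whose differences were largest in batch 3, both cultures of that batch were the lowest of their condition. With 1 culture of each condition in a batch, a low iASPP-WT culture and a larger change in that batch cannot be told apart. For *Bbc3* the iASPP-WT culture of batch 3 lay between those of the other batches, and its iASPP-KO culture was the highest of the 6.

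Levels of different genes were compared as CPM per kilobase of exon, using the exon lengths in the count table. In iASPP WT the order was *Pmaip1* (126 ± 19.7, SD, n = 3), *Mcl1* (62.4 ± 8.47), *Bax* (44.0 ± 9.06), *Bak1* (12.8 ± 2.03), *Bcl2l1* (6.20 ± 1.87), *Bbc3* (6.15 ± 0.764), *Bid* (5.78 ± 1.34), *Bcl2l11* (1.48 ± 0.221), *Bcl2* (1.14 ± 0.181) and *Bmf* (0.415 ± 0.135). *Bcl2l1*, *Bbc3* and *Bid* overlapped in their iASPP-WT values and were not told apart, while every other pair of neighbours had separate ranges. Of the summed level per kilobase of the 3 protective members, *Mcl1* supplied 85.9% to 93.3% in iASPP WT and 82.7% to 84.9% in iASPP KO. That sum leaves out *Bcl2l2*, a protective family gene outside the members, named after its values were seen. *Bcl2l2* had 12.2, 10.8 and 16.2 CPM per kilobase in iASPP WT and 13.3, 12.7 and 15.0 in iASPP KO. In iASPP KO *Bax* and *Mcl1* lay together, at 58.7 ± 4.38 and 58.4 ± 1.95 CPM per kilobase (SD, n = 3). *Bcl2* was above *Bcl2l11* under iASPP KO in batches 1 and 2 and below it in the remaining 4 cultures. The ratio of *Bax* to *Bcl2*, often quoted as a balance of killing and protection, was 32.5, 27.6 and 35.0 per kilobase under iASPP KO, while the untreated partners had 36.6, 41.6 and 36.9. It was lower with tamoxifen in each pair, *Bcl2* having the larger fold change of the pair of genes. Neither gene was called, and whether the ratio changed was not tested. On the log2 scale, the counting intervals of *Bcl2* and *Bax* overlapped in batch 1 (0.40 to 0.88 and 0.37 to 0.56). They also overlapped in batch 3 (0.46 to 0.98 and 0.54 to 0.74), and lay apart in batch 2 (0.57 to 1.01 and 0.11 to 0.29). Exon lengths count every annotated isoform, so genes with long, little-used exons have understated levels.

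**Figure D3:**
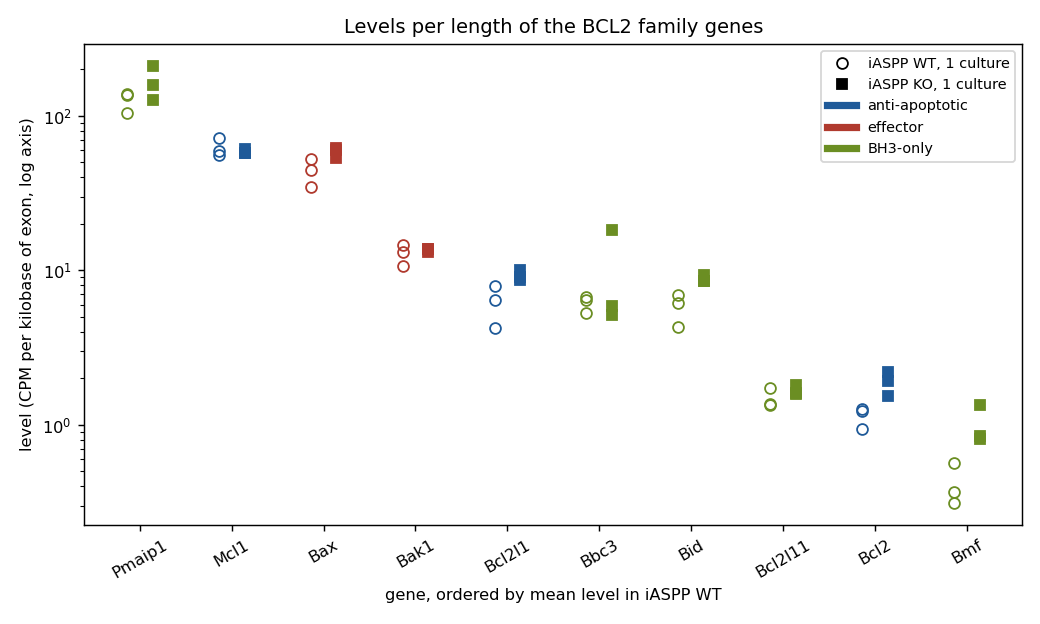
Level per length of each gene in CPM per kilobase of exon (log axis), 1 open circle per iASPP-WT culture and 1 filled square per iASPP-KO culture, ordered by the iASPP-WT mean and coloured by role. Levels run from 126 for Pmaip1 down to 0.415 for Bmf in iASPP WT, and the circles of Bcl2l1, Bbc3 and Bid share a range.

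Of 15 further BCL2 family genes, 8 had enough reads to be tested, and 1 of them differed significantly. *Bcl2l15* (chromosome 3, 103832601 to 103854618, plus strand) rose from 1.03, 6.19 and 1.65 CPM in iASPP WT to 4.23, 19.7 and 6.12 in iASPP KO (log2 fold change 1.85, SE 0.29, edgeR adjusted p = 0.00837). Batch 2 was the highest in both conditions, so the conditions overlapped although each pair differed in the same direction. Without batch 2 the call was lost (edgeR adjusted p = 0.119), 22.6% of its read-length windows of 42 bases also occur in transcripts of other genes, and 21.0% of its exon bases lie in a gene model on the same strand. *Bnip3l* and *Bcl2l13*, mitochondrial members linked to mitophagy, had log2 fold changes of 0.09 (SE 0.11) and 0.10 (SE 0.11), and 25.1% of the windows of *Bnip3l* also occur in its pseudogene. *Bcl2l12*, named after its values were seen, was the 1 lower gene of this list at an unadjusted p under 0.05 (8.09% of tested genes). It had 2.98, 2.47 and 5.86 CPM under iASPP KO, against 7.87, 4.59 and 7.79 CPM without tamoxifen, lower in all 3 batches with overlapping conditions (log2 fold change −0.89, SE 0.33, edgeR adjusted p = 0.201). The haematopoietic *Bcl2a1* genes were at 0 counts apart from 1 culture with a single read in *Bcl2a1b*, and 73.4% to 83.6% of their windows occur in one another or in a relative, so that reads from them would mostly not be assigned.

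Downstream of the pore, none of the 18 genes for caspase activation passed the threshold, and 3 had an unadjusted p under 0.05, all lower in iASPP KO (8.09% of all tested genes were). Their median log2 fold change was −0.21. The list mixes genes that promote caspase activation with inhibitors of apoptosis, so its median and counts give no direction of caspase activation. *Apaf1*, which assembles the caspase-9-activating apoptosome with cytochrome c, was at 67.5 ± 7.37 CPM under iASPP KO, with 83.4 ± 9.07 for iASPP WT (SD, n = 3; log2 fold change −0.31, SE 0.13, edgeR adjusted p = 0.272), and *Parp1*, a caspase substrate, had −0.25 (SE 0.12). *Birc5* (survivin), named after its values were seen, came nearest to a call, at −1.03 (SE 0.26, edgeR adjusted p = 0.0539). This gene, 1 of the inhibitors of apoptosis in the list, is also part of the mitotic machinery. In the death receptor list 14 of 16 genes were tested and none passed, with a median of 0.04. It had 1 gene on each side with an unadjusted p under 0.05, against 8.66% of all tested genes higher and 8.09% lower. *Cflar*, which blocks caspase-8, had a log2 fold change of 0.15 (SE 0.13), and *Ripk1* had −0.07 (SE 0.12). None of the 9 tested genes for proteins that bind BCL2 family members or control their turnover passed (median −0.09). Of the 9, 2 had an unadjusted p under 0.05 on the higher side and 1 on the lower, beside the same shares of 8.66% and 8.09%. In that list, the ubiquitin ligase gene *Huwe1* (MULE), which targets MCL1, had 0.29 (SE 0.11), and the deubiquitinase gene *Usp9x*, which spares it, had −0.13 (SE 0.11).

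Of 12 p53 targets in apoptosis outside the family, *Trp53inp1* alone passed, with 703, 692 and 816 CPM under iASPP KO, against 416, 545 and 356 CPM without tamoxifen (log2 fold change 0.77, SE 0.15, edgeR adjusted p = 0.0229). It encodes a stress-induced protein that promotes p53 activity. *Perp*, a desmosomal p53 and p63 target, had a log2 fold change of −0.01 (SE 0.10), and *Phlda3* had −0.10 (SE 0.13). On each side 1 gene of the list had an unadjusted p under 0.05 (8.66% of all tested genes higher, 8.09% lower). The lower one was *Apaf1*, already counted in the caspase list. The median of the list was 0.06, and that of the 8 further BCL2 family genes was 0.04. For comparison, the p53 targets of arrest and feedback *Cdkn1a* (p21) and *Mdm2* rose, with log2 fold changes of 0.64 (SE 0.11, edgeR adjusted p = 0.0138) and 0.79 (SE 0.13, edgeR adjusted p = 0.0118), and each was higher with tamoxifen in all 3 batches. *Bax*, *Bbc3* and *Pmaip1* had 0.43, 0.43 and 0.36 in the same fit, without a call. Whether these changes differ between genes was not tested. In the list of ASPP and p53 family genes, 8 were tested, 2 passed as higher and 2 as lower (*Ppp1r13l* and *Trp73*), and the median was −0.08. *Trp53* and *Trp63* had log2 fold changes of 0.13 (SE 0.20) and −0.17 (SE 0.12), and *Trp73* fell from 5.83 ± 0.514 to 1.85 ± 0.463 CPM (SD, n = 3; log2 fold change −1.67, SE 0.38, edgeR adjusted p = 0.0399). The calls of *Cdkn1a* and *Trp73* were lost without batch 1 or batch 2, with adjusted p-values from edgeR of up to 0.0725 and 0.208.

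**Figure D4:**
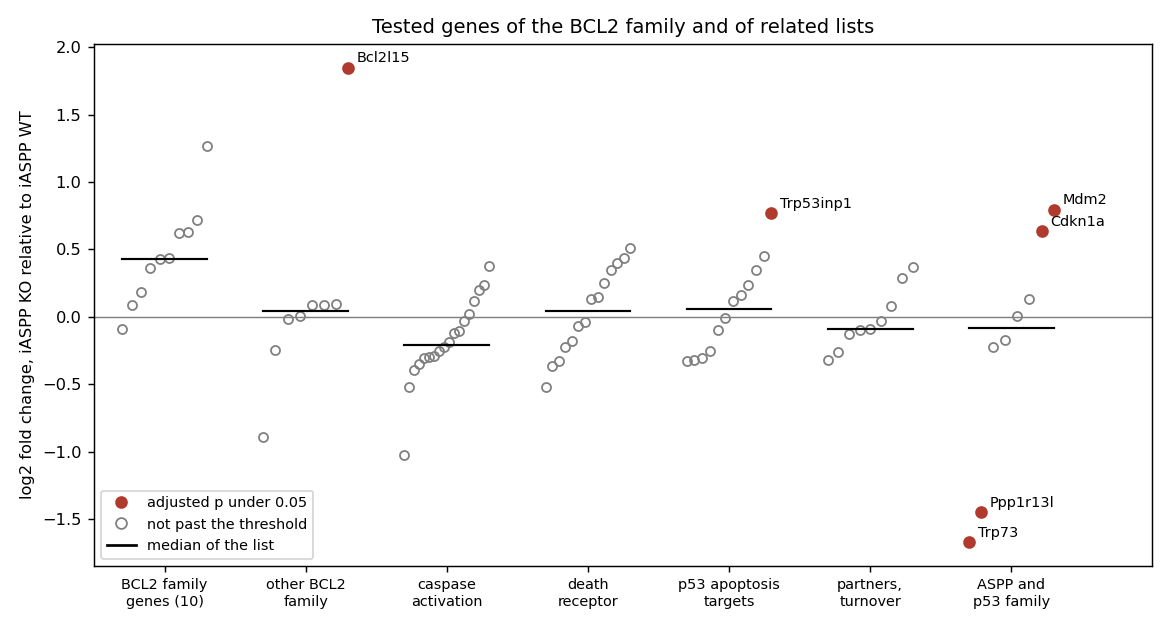
Log2 fold change with tamoxifen (iASPP KO over iASPP WT) for each tested gene of the BCL2 family and of 6 related lists. Each gene of a list is 1 circle, filled where the edgeR adjusted p was under 0.05, with a line at each median. The lists overlap, and a gene in more than 1 list is drawn in each. The median of the 10 BCL2 family genes is 0.43 and that of the caspase list −0.21, and the filled circles are Bcl2l15, Trp53inp1, Mdm2, Cdkn1a, Ppp1r13l and Trp73.

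Since no member passed the threshold, the genes with the most similar pattern were sought for the 2 members with the smallest p, *Bid* and *Bcl2*, by Pearson's r of log2 CPM over the 6 libraries among 10146 other genes of at least 5 CPM. For *Bid* these were *Osbpl9* (r = 0.991), *Trp53inp2* (0.989) and *Npc2* (0.989). For *Bcl2* they were *Wbp2* (0.993), *Sprr2d* (0.991) and *Ypel3* (0.988). Of these 6 genes *Osbpl9*, *Wbp2*, *Sprr2d* and *Ypel3* passed the threshold as higher in iASPP KO, *Sprr2d* with the largest log2 fold change of them (1.58, SE 0.18, edgeR adjusted p = 0.00192). The calls of *Osbpl9* and *Wbp2* were lost without batch 1 (edgeR adjusted p = 0.0847 and 0.0924) or batch 2 (0.139 and 0.209), and that of *Ypel3* without batch 2 (0.127). With 6 points that share batches, conditions and scaling such values are common, and 86 and 55 genes had r above 0.95 with *Bid* and *Bcl2*. Genes picked for likeness to members with a small p tend to differ in the same direction, so their calls are no separate support.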

How the data were processed

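Total RNA of 6 cultures (3 iASPP KO and 3 iASPP WT, in 3 batches) was depleted of ribosomal RNA and sequenced as single reads of 42 bases. The authors deposited raw counts per gene name, made with STAR (version 2.7.3) and featureCounts (version 2.0.0, reads assigned by strand) on mm10 with GENCODE annotation. The submitters' processing notes also name FastQC (version 0.11.9) and cutadapt (version 2.10). A gene's exon length in that table is the union of its annotated exons. A second deposited table of the authors' own fold changes and p-values was not used.

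Counts were filtered with filterByExpr by condition, scaled by TMM and fitted with batch and condition by edgeR (version 4.0.16, R 4.3.3) quasi-likelihood tests, with Benjamini-Hochberg adjustment over 14916 genes and a threshold of 0.05. SE is the log2 fold change divided by the square root of the F statistic. Within-batch log2 differences use CPM with a prior count of 2, and read ratios have 95% Clopper-Pearson intervals, which cover counting error only. The batch is a block because the labels give each batch 1 culture of each condition and the study's methods adjust for it. Deviations from the condition means correlated within the 3 batches at 0.302, 0.369 and 0.568, and between batches at −0.427 to 0.179. No libraries were copies of one another (chi-square per gene of 39.7 to 172.5). P-values weigh the difference between the conditions against its variation from batch to batch, with a variance estimate that borrows from other genes. Whether the batches came from different litters is not given in the sources used here. DESeq2 (version 1.42.0) and the other alternatives are described in the closing section.

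On simulated counts with 200 genes changed by a log2 fold of 1.5, edgeR with the batch term recovered 70.5% with 6.62% false calls over 14037 genes, edgeR without it 19% with 0% false, and DESeq2 72% with 6.49% false over 14914 genes. The log2 fold changes of the 10 genes were all smaller than that, the largest being 1.27 for *Bmf*, and such changes were not simulated.

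The members and gene lists were chosen with earlier results of these data known. Named genes were the 10 members, *Ppp1r13l*, *Trp53*, *Trp63*, *Cdkn1a*, *Mdm2*, every called gene of each list (at most 6), the 2 most abundant tested genes of a list with fewer than 2 calls, and the 3 genes most like each of the 2 members with the smallest p, none having passed. *Birc5*, *Bcl2l12*, *Bcl2l2*, the fibroblast markers *Pdgfra* and *Dcn*, and the untested *Bcl2a1* genes were named in addition. Promoter windows came from a RefSeq table (GRCm38.p6). Protein sequences were not used here.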

Additional observations from a re-analysis of the deposited data

How the results depend on the processing

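The alternatives were RLE or upper-quartile scaling, no filter or at least 10 counts in every library, robust dispersion, DESeq2, a fit without the batch block, and leaving out each batch. Over all genes, 323 were called higher and 291 lower. No filter gave 624 and 491, leaving out a batch gave 169 to 793 and 117 to 662, and the fit without the batch block gave 0 and 0. Of the 10 members, 0 were called higher (2.17% of all tested genes), 4 without a filter (1.95%) and 2 with DESeq2 (3.69%). Leaving out a batch gave 0 to 1, the 1 being without batch 3 (5.20%). The calls gained were, without a filter, *Bcl2* (log2 fold change 0.72), *Bcl2l1* (0.63), *Bax* (0.44) and *Bid* (0.64), with DESeq2 *Bcl2l1* (0.63) and *Bid* (0.64), and, without batch 3, *Bcl2*, whose range over the batches left out was 0.68 to 0.76. Signs turned when 1 batch was left out for *Mcl1* (−0.19 to 0.035), *Bak1* (−0.020 to 0.18), *Bbc3* (−0.12 to 0.75), *Cflar* (−0.00031 to 0.23), *Perp* (−0.068 to 0.047), *Phlda3* (−0.27 to 0.044) and *Trp53* (−0.15 to 0.32), and for *Perp* with at least 10 counts in every library (0.0026). The cause was not tested. Since the fit without the batch block called 0 genes of all those tested, it does not show how calls of members depend on the block. Counts of members by unadjusted p and by non-overlap were added after the data were seen. Across the alternatives, 4 to 7 members had an unadjusted p under 0.05 on the higher side. The share of all genes at that p was not worked out for each alternative, so these counts have no background of their own. Members wholly higher in iASPP KO numbered 6, 5 and 6 without batch 1, 2 and 3, against 13.0%, 14.5% and 22.0% of tested genes. *Bmf* had the fewest reads of the members, 40 to 167 a library, and the effect of depth on its test was not examined.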
